A study of Mus musculus with 173 samples.

Results

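The second principal component of kidney expression in an F2 intercross was followed through the 150 transcripts most correlated with it, out of 17110 distinct transcript measurements above the median array level and 37264 transcripts in all. A principal component is a weighted sum of transcripts. The first is chosen to hold as much as possible of the variation between animals, and the second of what the first leaves. The members were the 150 measurements with the largest absolute Pearson correlation (r) with the second component over animals, after each transcript's mean was subtracted and identical measurements were kept once. The sign of the component was set so that most members were positive, which gave 135 positive and 15 negative members. The members were thus chosen by the array values of all 173 animals, and their correlations with the component and with each other are descriptions with no test.

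The kidneys came from 173 male MRL/MpJ x SM/J F2 mice aged 13 weeks, a single group without a treatment, housed singly for 3 days and fasted for 4 hours before collection. The F2 animals descend from MRL/MpJ females and SM/J males, 2 inbred strains, through intercrossed F1 progeny. Each kidney was measured once, on 1 array, and the title of each sample gives a mouse number from 1 to 173. The labels state neither what this number follows (birth, collection, RNA preparation or hybridisation) nor any date or array batch.

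The whole kidney holds filtering glomeruli, several kinds of tubule cells that reabsorb and secrete solutes, vessels, connective tissue and immune cells. A transcript level in such a sample moves with the share of each cell type and with the amount of transcript per cell, and these cannot be told apart in bulk RNA. In an F2 animal each locus outside the sex chromosomes carries 0, 1 or 2 copies of either parental allele. The number of copies can shift the level of a transcript in steps. The identifiers in the files are Ensembl transcripts that no table used here pairs with gene symbols, positions or sequences. Gene roles and kidney cell markers could therefore not be assigned to the members, the labelled tissue could not be checked against its markers, no sequence is shown, and 4 identifiers stand as examples.

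Values are on a log2 scale, where a difference of 1 is a 2-fold difference in array signal. Array medians lay between 7.22 and 7.35. Each array was compared with the median of all arrays, and their correlations over all transcripts ran down to 0.985 from a median of 0.997. The 5 arrays with the lowest correlation were those of mice 29, 47, 50, 103 and 123. On the component, expressed in SDs over animals, these 5 lay between -1.30 and -0.18, inside the range of the other animals. Left out, the same component came first instead of second, and 90 of the 150 members were chosen again.

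The second component held 9.65% of the variance of the 17110 measurements, against 11.7% for the first and 4.44% for the third. Positive members had r from 0.718 to 0.933, with a median of 0.769. Negative members had r from -0.838 to -0.720, with a median of -0.741. The threshold cut through a continuous range: the 2 members just inside had an absolute r of 0.7177 and 0.7175, and the 2 transcripts just outside 0.7170 and 0.7162. Over all 17110 measurements the median absolute r was 0.163, and 1056 (6.17%) had an absolute r above 0.5, of which 706 were positive and 350 negative. The members are thus the far end of a gradient that runs through many more transcripts.

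The transcripts at or below the median level took no part in the component. Of these 17296 distinct measurements, 13 (0.0752%) reached the r of the weakest member, 12 of them positive and 1 negative. A further 12 identifiers above the median level had exactly the values of a member on every array and were represented by it.

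Animals spread along the component from -3.33 in mouse 59 to 2.10 in mouse 158, with a median of -0.01. The 2 lowest animals, mice 59 and 31 at -3.33 and -2.76, stood apart below the third lowest, mouse 9 at -2.04. They carried 10.9% of the component's sum of squares. Mouse 59 was the lowest of all animals for 54 of the 135 positive members and the highest for 13 of the 15 negative members. Mouse 31 was the lowest for 26 positive members and the highest for none (0) of the negative ones. Without these 2 animals, 145 of the 150 members were chosen again, so these 2 did not decide the membership. The next highest animals after mouse 158 were mice 128, 157, 163 and 161, at 2.02, 1.91, 1.81 and 1.74.

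**Figure D1:**
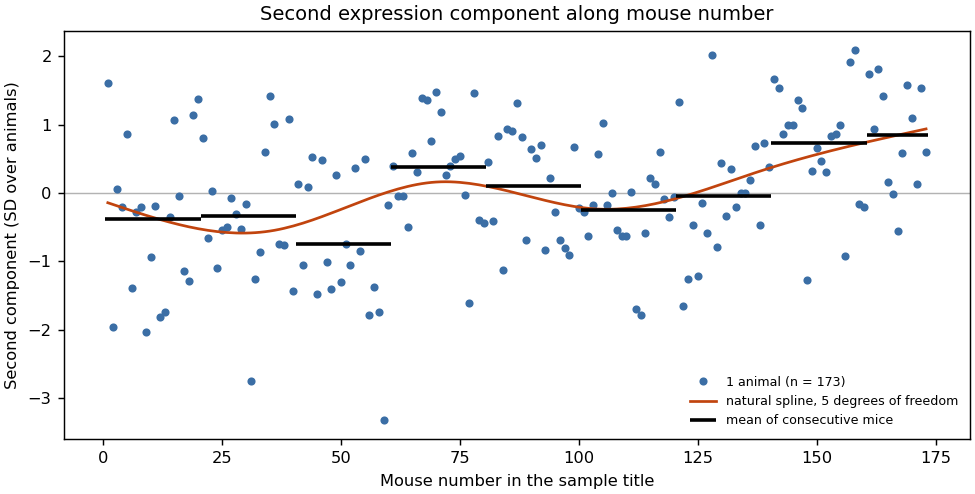
Second component (vertical axis, in SDs over animals) against mouse number for 173 animals (points), with a natural spline with 5 degrees of freedom (curve) and the means of consecutive groups of mice (bars). Animals numbered 141 to 173 lie mostly above 0, and mice 59 and 31 lie lowest.

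The members had higher array values and larger SDs than most measurements. Their mean level ran from 7.29 to 13.06 with a median of 9.16, against a median of 8.45 over all 17110, and 48 of the 150 (32.0%) had a mean above 10, against 13.1% of all. Array values of different transcripts depend on their probes, so this describes signal and is no comparison of transcript amounts. Their SD over animals had a median of 0.22, against 0.11 over all, and each of the 150 had an SD above that overall median. The component was computed without scaling, which gives variable transcripts more weight, so these SDs, and levels that go with them, are in part set by the selection. The largest SD of all transcripts, 2.17, was not that of a member. Between the 5th and 95th percentile of animals, the members differed by a median of 1.62-fold (from 1.27-fold to 6.35-fold), against 1.27-fold over all. The full range exceeded 1 log2 unit for 113 members and 2 log2 units for 18. The median SD was 0.22 among positive members and 0.21 among negative ones.

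The member with the widest spread had an SD of 0.85, the 24th largest of all 17110, at an r of 0.810. Its lowest, median and highest values were 7.49, 10.07 and 11.51. The lowest value, in mouse 113, stood near 7.25, the middle of the transcript means on these arrays. The longer tail was mostly on the low side of the component: for 113 of the 150 members the skewness, with the sign of negative members turned, was below 0, with a median of -0.31. The component itself had a skewness of -0.30, with mice 59 and 31 lowest on it, and members follow it by their choice.

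The choice of members by 1 component sets how they relate to each other, and these values give only its extent. With the sign of negative members turned, each of the 11175 pairs of members had a positive correlation over animals, with a median of 0.647, a 5th percentile of 0.486 and a minimum of 0.313. The first principal axis of the 150 scaled transcripts held 65.3% of their variance and the second 3.41%. Correlations with the component that ranked first in the whole table were small for most members, from -0.40 to 0.15 with a median of -0.07, and exceeded 0.3 in absolute value for 8.

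**Figure D2:**
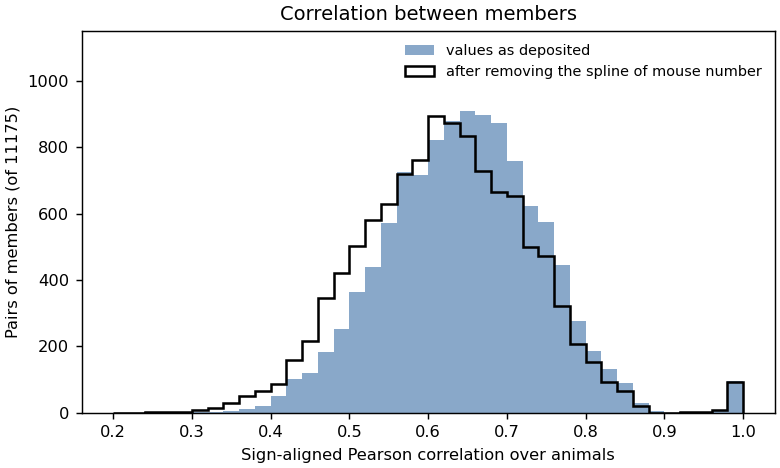
Number of pairs (vertical axis) by Pearson correlation over 173 animals, signs aligned (horizontal axis), for the 11175 pairs of members, as deposited (filled) and after the spline of mouse number was removed (outline). Most pairs lie between 0.49 and 0.80, and a separate group close to 1 holds near-copies.

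Some members were near-copies of each other. Of the 11175 pairs, 103 had a correlation above 0.95 and only 1 more lay above 0.9, which leaves a nearly empty gap between near-copies and the rest. Linked above 0.95, the 150 members formed 94 sets: 64 single transcripts and 30 sets of 2 or more that held 86 members. Whether the near-copies share a gene or probes was not tested, and the calls of the linear fit are given below also as counts of sets. The largest set had 8 members, with mean levels between 10.72 and 11.03 and SDs between 0.23 and 0.24. The second largest had 5 members, with levels of 12.68 to 12.70 and SDs of 0.19. The 15 negative members fell into 15 separate sets, so none had a near-copy among the members.

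The transcript with the highest r (0.933) was ENSMUST00000026613. Its value was lowest at 8.73 in mouse 59, had a median of 11.02 and was highest at 12.18 in mouse 157 (SD 0.64, n = 173). The whole range amounts to 10.9-fold, and the 5th and 95th percentiles of animals differed 3.81-fold. ENSMUST00000111308, at an r of 0.929, ran from 8.29 in mouse 59 through a median of 10.66 to 11.79 in mouse 157 (SD 0.63, n = 173). The values of these 2 transcripts correlated at 0.996 over animals and belonged to 1 set of 4, so they are not separate findings.

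The most negative r (-0.838) was that of ENSMUST00000036554. Its value was lowest at 7.99 in mouse 87, had a median of 8.40 and was highest at 9.20 in mouse 59 (SD 0.19, n = 173), a 2.32-fold range. ENSMUST00000045388, at an r of -0.817, ran from 9.08 in mouse 128 through a median of 9.52 to 10.35 in mouse 59 (SD 0.21, n = 173), a 2.42-fold range. The 2 negative transcripts correlated at 0.751 with each other and at -0.835 to -0.811 with the 2 positive ones. Mouse 59 thus stood at the low end of both positive examples and at the high end of both negative ones.

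Mouse number was not used to choose the members, and the study's labels let each transcript be followed along it. The component was picked out for follow-up because an earlier look at the same data had shown neighbouring mice to be alike on it, so the counts below describe how that pattern falls on its transcripts and are not independent support for it.

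Levels did not drift evenly but moved in stretches. In consecutive groups of 20 mice (13 in the last), the component's mean was -0.37 ± 1.16 (SD, n = 20) for mice 1 to 20, -0.34 ± 0.99 for mice 21 to 40 and -0.75 ± 1.01 for mice 41 to 60. It was 0.38 ± 0.79 for mice 61 to 80 and 0.10 ± 0.77 for mice 81 to 100, then -0.25 ± 0.68 and -0.05 ± 0.88 for the following 2 groups. It was highest at 0.73 ± 0.88 for mice 141 to 160 and 0.85 ± 0.76 (SD, n = 13) for mice 161 to 173. The groups overlapped throughout: each had its lowest animal at -0.55 or below and its highest at 0.52 or above. Of the 33 animals numbered above 140, 27 lay above 0, against 57 of the 140 others, and 10 of the 20 highest animals and 1 of the 20 lowest came from these 33 (19.1% of all animals). The boundary at 140 was read from the group means and was given no test.

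The members followed these stretches closely in some groups and less so in others. In mice 41 to 60, each of the 135 positive members had a group mean below its own overall mean and each of the 15 negative members one above. In mice 61 to 80, 132 of the 135 positive members were above and 13 of the 15 negative members below. In mice 141 to 160 and again in mice 161 to 173, all 135 positive members were above and all 15 negative members below. The median shift of positive members was -0.13 in mice 41 to 60, 0.10 in mice 61 to 80 and 0.11 in each of the last 2 groups (log2). The median shift of negative members was 0.10, -0.04, -0.12 and -0.14 in the same 4 groups. The members were less uniform in between. In mice 81 to 100, 118 positive members were above and 17 below their own mean, with 4 of the 15 negative members above. In mice 101 to 120, 120 positive members were below and 15 above. In mice 121 to 140, 87 positive members were below and 48 above, and 12 of the 15 negative members were below as well, so that the signs did not run opposite there. Members move together by their choice, so these counts follow from a few shared shifts and not from 150 separate ones.

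**Figure D3:**
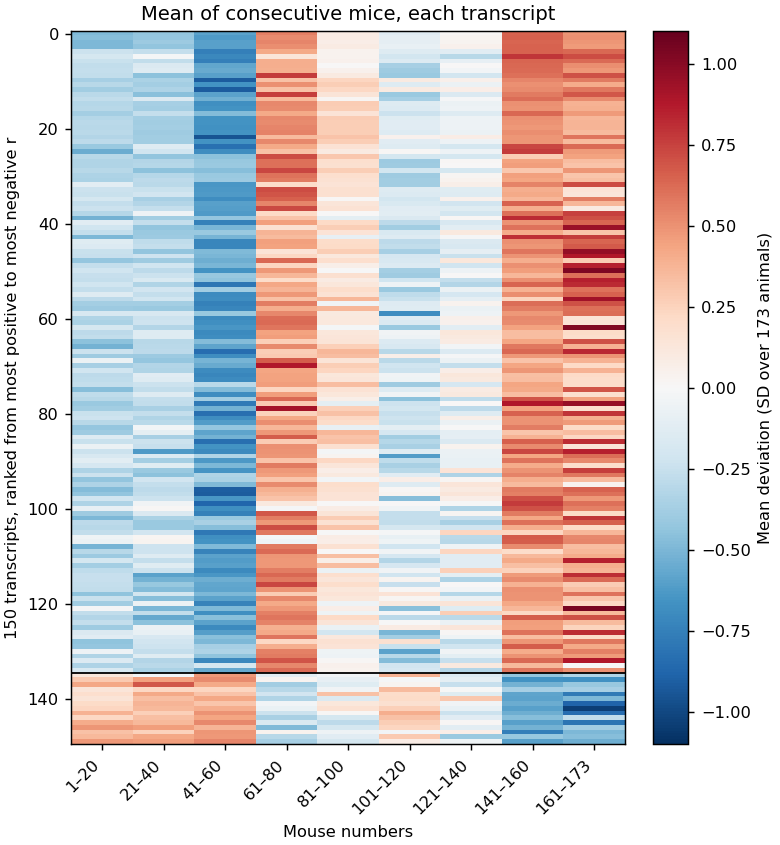
Mean deviation of each member (rows, ranked from most positive to most negative r, with a line between signs) from its own mean, in SDs over 173 animals (colour), for consecutive groups of mice (columns). Positive members are mostly low in mice 1 to 60 and mostly high in mice 61 to 80 and 141 to 173, and most negative members run the other way.

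The examples show the size of these shifts beside the spread between animals. ENSMUST00000026613 had a mean of 10.62 ± 0.76 (SD, n = 20) in mice 41 to 60, 11.36 ± 0.47 in mice 61 to 80 and 11.42 ± 0.52 in mice 141 to 160. Its values ran from 8.73 to 11.72 in the first of these groups and from 10.32 to 12.18 in the last, so the groups overlapped. ENSMUST00000036554 had means of 8.51 ± 0.22, 8.34 ± 0.20 and 8.30 ± 0.17 (SD, n = 20) in the same 3 groups. Its values ran from 8.26 to 9.20 and from 8.09 to 8.77 in the first and last of them, which overlapped as well.

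**Figure D4:**
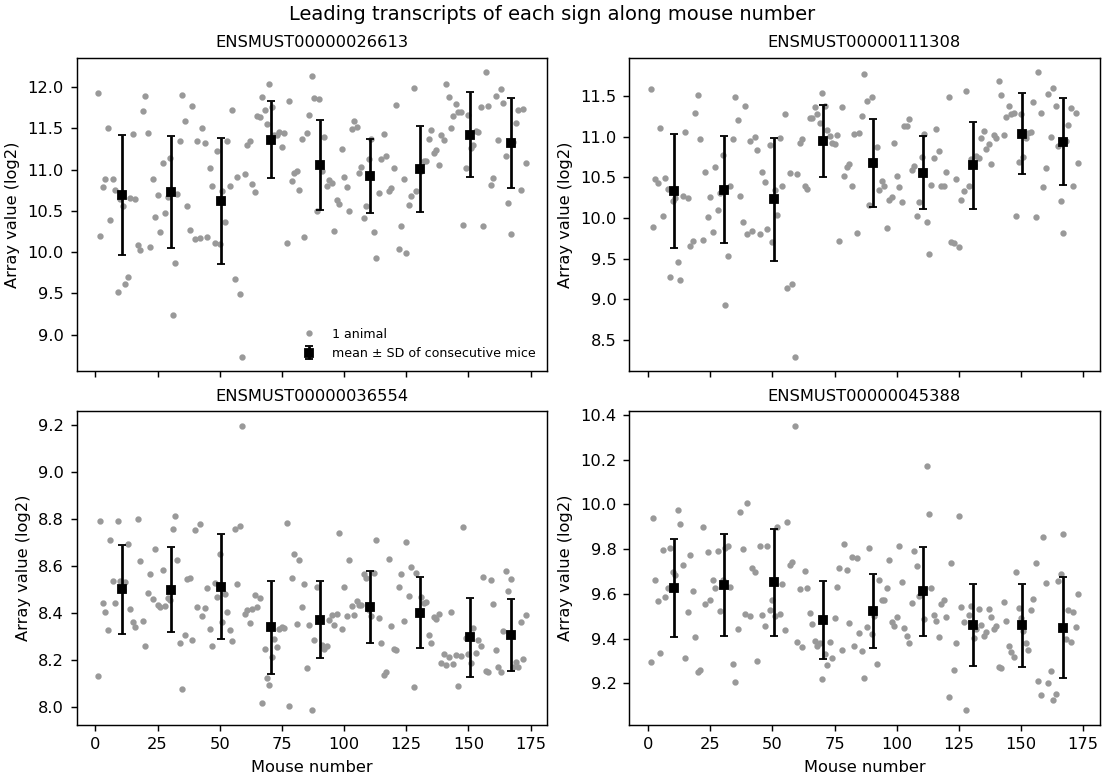
Array value (log2) against mouse number for the 2 members of highest r (top) and the 2 of most negative r (bottom), for 173 animals (grey points) with the mean ± SD of consecutive groups of mice (black). The top transcripts are lowest in mouse 59 and the bottom ones highest in it.

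A linear trend along mouse number was fitted to every measurement with limma, with Benjamini-Hochberg adjustment over all 17110, and called at an adjusted p under 0.05. Over all measurements 10.5% were called, 6.27% higher and 4.20% lower with mouse number. Among the members 105 of 150 (70.0%) were called: 94 of the 135 positive members rose with mouse number and 11 of the 15 negative members fell. No member was called in the other direction (0 of 150), and at an unadjusted p under 0.05 there were 139 members, against 26.1% of all measurements. The signs of members come from their r with a component that was highest in the last groups of mice. Their shared direction is thus largely set by the choice of members and is not a separate result for each. Adjusted p-values of members lay between 0.00014 and 0.368. In terms of sets, 66 of the 94 had a called member, and in each of these 66 every member was called.

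The fitted slopes were modest. Positive members had a median slope of 0.10 log2 units per 100 mouse numbers (from 0.03 to 0.44) and negative members one of -0.12 (from -0.28 to -0.05), while the median absolute slope over all measurements was 0.02. ENSMUST00000026613 rose by 0.40 ± 0.09 (SE) per 100 mouse numbers, a 1.32-fold difference (limma, adjusted p = 0.0021). ENSMUST00000036554 fell by 0.13 ± 0.03 (SE) per 100 mouse numbers (limma, adjusted p = 0.0014). The widest-spread member rose by 0.44 ± 0.12 (SE) on the same scale (limma, adjusted p = 0.012).

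Because the members moved in stretches, a natural cubic spline of mouse number with 5 degrees of freedom was fitted as well. It called 8.04% of all measurements and 105 of the 150 members. Both fits called 91 of the members, against 919 of all 17110 measurements. A coarser curve with 3 degrees of freedom called 64 members, against 6.51% of all measurements, a finer one with 8 called 92, against 6.18%, and the groups of consecutive mice entered as a factor called 132, against 11.3% of all measurements. The spline accounted for a median of 10.7% of a member's variance (from 4.26% to 20.6%), against 4.22% over all measurements, and for 16.7% of the component's variance. Without the 5 arrays of lowest correlation the linear fit called 102 members (12.4% of all measurements) and the spline 105 (8.61%). Without mice 59 and 31 they called 87 (7.97%) and 109 (7.04%), and with all 34406 distinct measurements tested they called 83 (3.82%) and 70 (2.84%). With arrays quantile-normalized again they called 112 (13.0%) and 94 (7.91%), and with the first component as a covariate 107 each (15.3% and 9.09%). Most of the variation of the members between animals was therefore not described by the smooth curve. The very smallest p-values of the spline fit were not those of members, the best of which ranked 13th. Members held 14 of the 100 smallest, however, while they make up 0.877% of all measurements. Members move together by their choice, so these 14 are not separate findings.

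Calls were made over the whole range of r, against 10.5% of all measurements in the linear fit and 8.04% in the spline. Of the 50 members with the strongest r (0.796 to 0.933 in absolute value), 41 were called by the linear fit and 45 by the spline. In the middle 50 (0.749 to 0.796), 30 and 32 were called, and in the 50 with the weakest (0.718 to 0.747), 34 and 28. The spline counts fell with r, while the linear counts did not fall evenly. The component was picked for its link to mouse number, so calls among transcripts close to it follow in part from the choice. Near-copies were also counted singly. The largest set, with all 8 members called by both fits, lay in the strongest 50. The second largest, with 0 of 5 called by either fit, lay in the middle 50. These counts are thus descriptions. Of the next 150 transcripts outside the threshold, with absolute r from 0.652 to 0.717, 85 were called by the linear fit and 74 by the spline. Among the 13 transcripts below the median level that reached the members' r, 3 were called by the linear fit over all distinct measurements, in which 0.711% of the transcripts of that level were called.

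**Figure D5:**
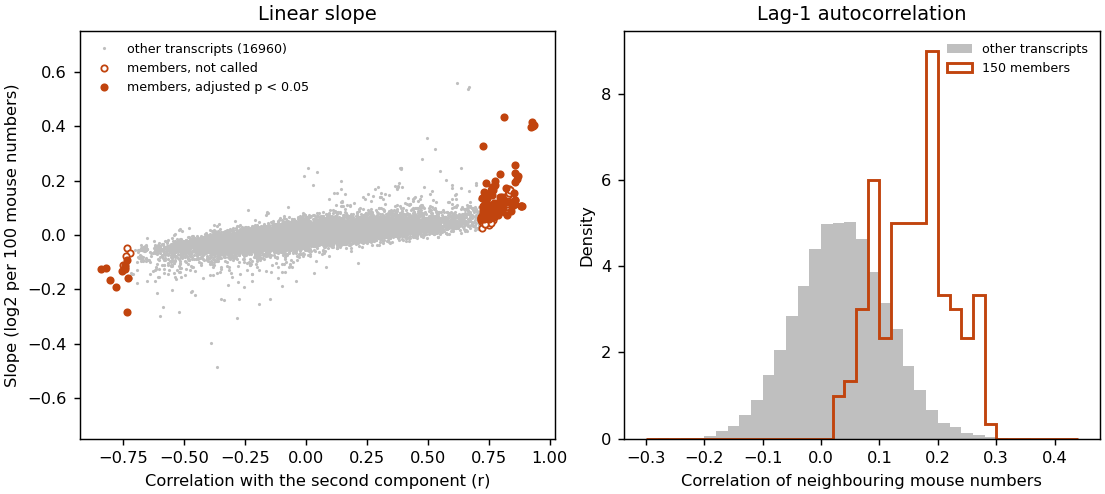
Left, slope along mouse number (log2 per 100 mouse numbers) against r with the second component for the 150 members (red, filled where the adjusted p was under 0.05) and the other 16960 measurements (grey). Right, density of the correlation between neighbouring mouse numbers, with the members (outline, median 0.168) to the right of the other measurements (filled).

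Neighbouring mice resembled each other in the members. The correlation between each mouse and the next (lag-1 autocorrelation) was above 0 for all 150 members, with a median of 0.168 and a range of 0.029 to 0.282. Over all 17110 measurements the median was 0.035, and 67.6% were above 0. The component itself, at 0.272, was picked for such likeness, and the members follow it by their choice. Counts of members here thus describe 1 shared series and not 150 separate ones. The members' median was 0.149 for mice 2 numbers apart, 0.139 for mice 5 apart and 0.014 for mice 10 apart, against 0.043, 0.0010 and 0.0087 over all measurements. The resemblance thus was seen up to 5 numbers apart and was near the level of all measurements at 10. Within mice 1 to 140 the members' median at lag 1 was 0.104 (136 of 150 above 0), against 0.017 over all measurements, and within mice 141 to 173 it was 0.051 (109 of 150 above 0), against 0.032. Both values were lower than the 0.168 over all mice. After a linear trend was removed, the median at lag 1 was 0.110. Without the 5 arrays it was 0.157, and without mice 59 and 31 it was 0.143, both with the trend kept. The fits above treat animals as independent, so with such resemblance between neighbours their p-values may be too small.

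The correlation between members, which the selection sets, was also taken apart from mouse number. After the spline was removed from every member, the median sign-aligned correlation of pairs was 0.622, against 0.647 before. Within mice 1 to 140 it was 0.636 and within mice 141 to 173 it was 0.602.

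The values of the arrays themselves moved with the component in 1 of 3 measures. The array median correlated at -0.283 with the component (Spearman's rho -0.326, permutation tests with 100000 resamples, two-sided, p = 0.00014 and 1e-05, the latter the smallest they can give, adjusted over 3 measures 0.00042 and 3e-05, n = 173). Without the 2 arrays farthest from the median, r was -0.350. The array SD (r = 0.106, rho = 0.090, permutation p = 0.164 and 0.241, adjusted p = 0.164 and 0.361) and the correlation with the median array (r = 0.126, rho = 0.0036, permutation p = 0.098 and 0.962, adjusted p = 0.147 and 0.962) did not pass. Without the 2 arrays farthest from the median of each measure, these r were 0.101 and 0.106. All 3 measures and the component were computed from the same array values, so these tests are descriptions and no independent support for a link. The permutations also treat animals as exchangeable, so with neighbouring mice alike on the component their p-values may be too small. Mean array medians of consecutive groups of mice ran only from 7.251 to 7.262, lowest in mice 141 to 160. With the array median and the correlation with the median array as covariates, the linear fit called 94 members, against 12.7% of all measurements, and the spline 87, against 10.4%. Both member counts were lower and both overall shares higher than without these covariates.

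The members were also compared with discrete class models. In an F2 cross a locus of large effect on an autosome gives 3 genotype classes in the ratio 1:2:1, which can merge where 1 allele is dominant, and a locus on the X chromosome gives males 2 classes in the ratio 1:1. These class models were compared with continuous ones by the Bayesian information criterion (BIC), and a lead over 10 was called discrete. Such calls were made for 1.23% of all measurements and for 0 of the 150 members. With so small a share over all measurements, a count of 0 does not set the members apart. The class models led by any margin for 4 members, at most by 1.32, and the median difference was -5.16. A shift by 1 locus that is smaller than the spread within classes would not be seen this way.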

How the data were processed

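Total RNA of 173 kidneys was amplified, labelled with biotin and measured on Affymetrix arrays, per the labels' protocols. The deposited log2 values were made by the authors with affy and RMA (background correction, quantile normalization and probe summary), per the submitters' processing notes; their versions, and how probes were assigned to transcripts, were not given in the sources used here. RMA compresses low signals, and quantile normalization removes differences in total signal. A strain difference under a probe can change binding without a change in transcript level. Arrays give no depth; their number limits the precision.

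Of 37264 transcripts, 18632 had a mean above the median of means (7.25), and 17110 of these were distinct (exact equality). Components came from a singular value decomposition with numpy 2.4.6. Trends were fitted with limma 3.58.1 (R 4.3.3, moderated tests) to all 17110 measurements. The fits and class models were checked on simulated data. The members, gene lists and tests were chosen with earlier results of these data known. The gene lists could not be used, because no table names the transcripts; for the same reason only the 2 members of highest and the 2 of most negative r were named, by a rule set for that case. Alternatives changed the filter, scaling, normalization, arrays, curve and covariates.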

Additional observations from a re-analysis of the deposited data

How the results depend on the processing

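Membership depended on how the component was computed. Of the 150 members, 36 were chosen again with transcripts scaled to unit SD, 90 without the 5 arrays of lowest correlation with the median array, 92 with transcripts above the upper quartile of means (where 100 members remained eligible) and 97 with arrays quantile-normalized again. In all but the first of these settings the matching component came first. Between 127 and 145 were chosen again without a filter, with identical measurements all kept, with the first component removed and without mice 59 and 31, the last chosen after seeing the data. The spline fit called 64 members with 3 degrees of freedom, against 105 with 5, and 70 to 132 under the other settings, lowest without a filter and highest with groups of mice as a factor. The linear fit called 83 without a filter, the lowest count, and 112 with arrays quantile-normalized again, the highest, against 105. Some settings left fewer transcripts or arrays, and the cause of the differences was not tested. Of 29 values under other settings, 24 lay within 1.5 times the count above or, for the autocorrelation, within 1 SD over members (0.062). These 24 include the discrete class counts, which were 0 under every setting. Outside lay the 36, 90, 92 and 97 members chosen again and the 64 called by the spline with 3 degrees of freedom. Membership was thus less stable than the pooled count shows. No paired analysis was possible because there is a single group. Mouse number has no stated meaning, and 1 array per animal leaves technical and animal variation joined.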
